A study of Mus musculus with 70 samples.

Results

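The gene set described here comprised 10 genes that mark lipid-associated macrophages: Trem2, Gpnmb, Cd9, Cd63, Lgals3, Lpl, Fabp5, Gdf3, Dcstamp and Atp6v0d2. They were chosen by symbol, and all 10 were among the 23732 gene symbols common to the deposited count tables. The study sequenced 70 mouse libraries after 24 weeks of control diet or NASH (nonalcoholic steatohepatitis) diet, from whole liver tissue and from its resident macrophages, isolated as F4/80high CD11blow cells. Control mice, called WT as in the sample titles, carried Lyz2.Cre+/+, and the other mice, called KI, carried OpnKI Mye, whose name stands for an osteopontin knock-in in myeloid cells. The age of the mice and the make-up of the diets were not given in the sources used here. Lyz2 is active in macrophages, monocytes and neutrophils, so a Cre expressed from it is not restricted to liver macrophages. Each of the 16 groups of tissue, sex, genotype and diet held 4 libraries, except that the macrophage groups on the NASH diet held 5 (males) or 6 (females). The labels do not say that the libraries of a group came from separate animals, so p-values measure the spread between these libraries.

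Library totals ran from 11245097 to 29966174 counts in male liver, 17917827 to 23669846 in female liver, 16512356 to 24317721 in male macrophages and 17151791 to 26244679 in female macrophages. The male liver WT control replicates 3 and 4 differed by less than counting noise and were averaged as 1 library, called replicate 3-4, which leaves 3 libraries in that group. Xist and Y-linked genes went against the male label in those replicates and in replicate 4 of the male macrophage WT control group, and all stayed in their labelled groups. Spp1, which encodes osteopontin, was at 0.268 to 0.516 counts per 1000000 counts of the library (CPM) in male macrophages of WT mice on control diet. In those of KI mice it was at 7.12 to 11.3. Female macrophages on control diet had 0 to 0.199 in WT against 1.43 to 2.47 in KI, also in the direction of the labels. On the NASH diet the genotypes overlapped in macrophages, at 5.72 to 55.9 CPM in WT and 43.7 to 199 in KI males. In females these ranges were 1.15 to 11.1 and 2.17 to 102. In male liver on the NASH diet Spp1 was lower in KI, at 22.2 to 65.8 CPM against 133 to 698 in WT. Female livers overlapped, at 26.6 to 58.0 against 53.4 to 92.8. The resident macrophage gene Clec4f ran from 3099 to 12672 CPM in sorted cells and from 62 to 199.9 in liver, whereas albumin transcript (Alb) ran from 17.9 to 1570.0 CPM in sorted cells. The sorted libraries thus carried the defining transcripts of their labelled cell type, with low but measurable hepatocyte RNA. They also held transcripts of 6 sinusoidal endothelial cell markers, at a sum of 542 to 3288 CPM against 181 to 475 in liver.

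Lipid-associated macrophages take up and break down lipid from dying or overloaded cells, and in fatty liver they gather around steatotic hepatocytes. Trem2 is a surface receptor that senses lipids and signals through the adaptor Tyrobp, and the other genes of the set act downstream of lipid uptake or accompany it: lipid transfer and hydrolysis (Lpl, Fabp5), the endosomal and lysosomal system (Cd63, Gpnmb, Atp6v0d2), membrane organization and cell fusion (Cd9, Dcstamp), a lectin that recognizes damaged membranes (Lgals3) and a ligand of the TGF-β family (Gdf3). Several of these genes are also expressed by other liver cells, among them biliary cells, stellate cells and hepatocytes. In whole liver, fewer cells of a type and less RNA per cell cannot be told apart.

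Promoter sequence from RefSeq on GRCm38.p6 was found for 5 of the 10 genes (Trem2, Gpnmb, Cd9, Cd63 and Lgals3), as windows from 250 bases before to 50 bases after the start of transcription. Trem2 and Gpnmb were the genes of these 5 whose window held a match to TGANTCA, searched on both strands. These letters are a loose form of the AP-1 motif, with any base allowed in the middle. The match read TGAATCA in Trem2 and TGACTCA in Gpnmb. The stretches from 100 bases before the start to 30 bases from it are shown for these genes, because they hold the match, in lower case, with the match in capitals. Trem2 lies on the plus strand at chr17:48346301-48346430 and Gpnmb on the plus strand at chr6:49036418-49036547.
Trem2: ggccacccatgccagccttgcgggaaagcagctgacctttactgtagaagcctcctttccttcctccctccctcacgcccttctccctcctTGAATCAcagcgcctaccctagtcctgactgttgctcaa
Gpnmb: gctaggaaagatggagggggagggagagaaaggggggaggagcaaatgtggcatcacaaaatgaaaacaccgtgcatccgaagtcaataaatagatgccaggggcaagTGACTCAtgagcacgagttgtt
The Trem2 match begins 9 bases before the start and the Gpnmb match 8 bases after the first transcribed base. Of all 32851 promoter windows of this length, 7.81% held TGANTCA. None of the 5 windows held CACGTG (in 7.15% of all windows), its longer form TCACGTGA bound by MiT/TFE factors (0.974%), the PU.1 motif GAGGAAGT (3.2%) or a direct repeat of the nuclear receptor type with 1 spacer base (0.0396%). A match of these letters is a description of the sequence and was not tied to any binding measurement.

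Per kilobase of exonic length, Lgals3 and Lpl were the most abundant members in every macrophage group. In male macrophages of WT mice on control diet, Lgals3 had the highest median level, 263 CPM per kb, followed by Lpl at 106, Trem2 at 5.59 and Cd9 at 5.51. Gdf3, Cd63, Fabp5, Atp6v0d2, Gpnmb and Dcstamp were all under 1 CPM per kb there, with Dcstamp, at 0.0547, the lowest. Female macrophages of WT mice on control diet had Lgals3 at 232, Lpl at 83.5 and Trem2 at 3.56 CPM per kb. The same diet and genotype in male liver put Fabp5 first at 77.3, then Cd9 at 13.8 and Lgals3 at 2.4 CPM per kb, so that the order of the members in liver was not that in sorted macrophages. Gpnmb changed its place in the order among macrophage groups: its median was 0.157 CPM per kb in male WT macrophages on control diet and 132 in male KI macrophages on the NASH diet, where only Lgals3 and Lpl were higher.

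**Figure D1:**
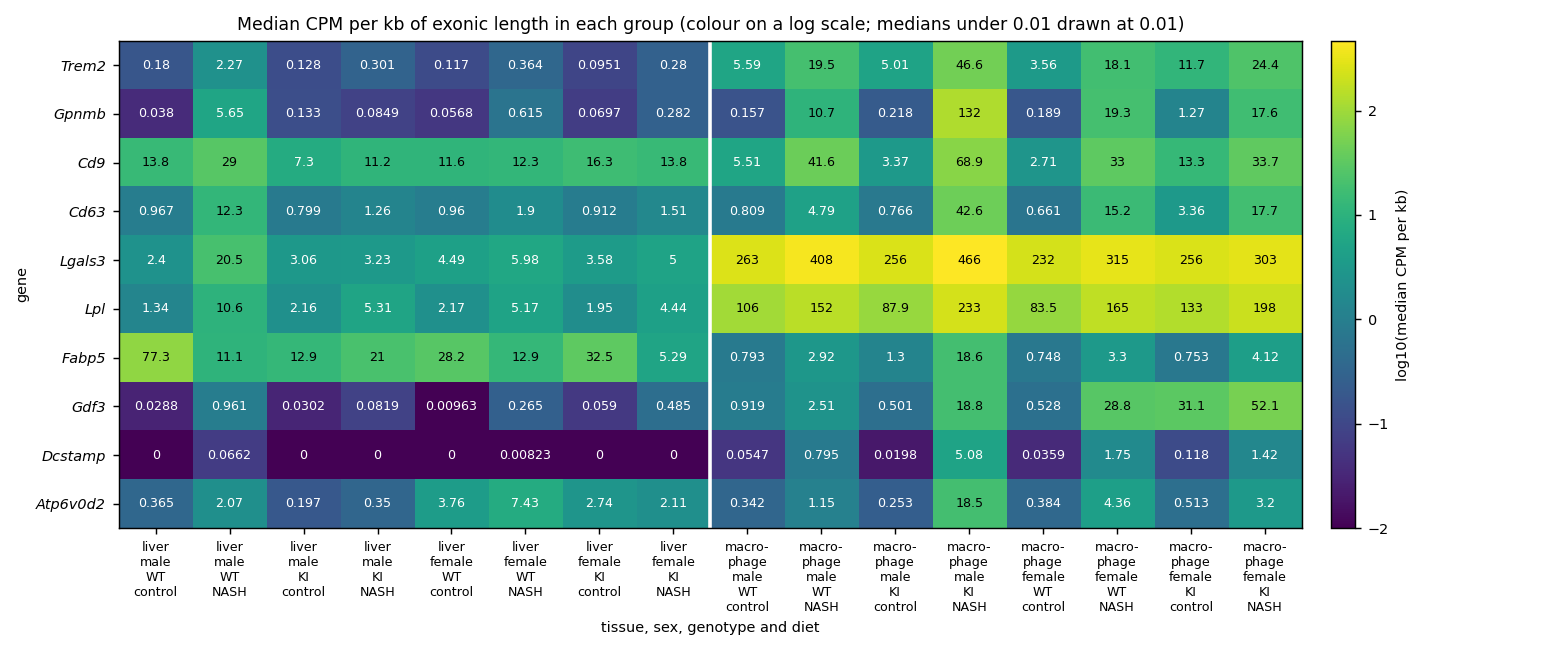
Median CPM per kb of exonic length of each gene (rows) in each of the 16 groups (columns), with the colour on a log scale and medians under 0.01 drawn at 0.01. Lgals3 and Lpl are the highest in every macrophage group, while Fabp5 reaches 77.3 in male liver of WT mice on control diet and 0.793 in the matching macrophages.

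Sorted macrophages and liver were compared directly, within each sex, in WT mice. On control diet, 4 of 10 genes were higher in male macrophages (39.2% of all genes tested were) and 2 were lower (40.3%), and in females 4 were higher (39.9%) and 3 lower (42.9%). The higher genes were Trem2, Lgals3, Lpl and Gdf3 in both sexes, and the lower ones were Cd9 and Fabp5 in both sexes and Atp6v0d2 in females. Mean Trem2 was 30.3 CPM in male macrophages and 0.835 in male liver, a ratio of 36.3, and for Lpl the ratio was 82.6. Fabp5, a cytosolic carrier of fatty acids, was instead 109 times as high in male liver as in male macrophages. On the NASH diet 6 genes were higher in male macrophages (40%) and none was lower (40.5%), while in females 8 were higher (40.3%) and Fabp5 alone was lower (42.9%). Since 39.2% and 40.3% of all genes differed between the tissues in each direction, and since liver and macrophage RNA were isolated with different kits, the counts on control diet are close to the background, and tissue and kit cannot be told apart.

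Trem2 rose in male liver on the NASH diet in WT mice and did not pass the test in KI mice. Its level was 0.279, 0.892 and 1.33 CPM in the WT control libraries, in replicate order, and 16.8, 10.3, 12.2 and 8.58 on the NASH diet. Every NASH library lay above every control library, and the log2 fold change was 3.57 ± 0.46 (SE), adjusted p = 0.000468, by the quasi-likelihood test of edgeR with Benjamini-Hochberg adjustment over all genes, as for all adjusted p-values in these results. KI livers had 0.897, 0.675, 0.541 and 0.587 CPM on control diet and 1.78, 0.417, 1.2 and 1.93 on the NASH diet. These groups overlapped, with a log2 fold change of 0.96 ± 0.42 (SE), adjusted p = 0.729. On the NASH diet KI livers were lower than WT livers by -2.97 ± 0.38 (SE), adjusted p = 0.000138 on the log2 scale, with no overlap. The diet effect of KI minus that of WT was -2.61 ± 0.62 (SE), adjusted p = 0.0597, which did not pass the threshold. In female liver, WT values were 0.43 to 0.611 CPM on control diet and 0.84 to 2.15 on the NASH diet, a log2 fold change of 1.57 ± 0.47 (SE), adjusted p = 0.16.

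In sorted male macrophages Trem2 rose in both genotypes. WT cells had 26.2, 42.7, 29.1 and 23.1 CPM on control diet and 70.4, 237, 96.3, 222 and 80.5 on the NASH diet, where replicates 2 and 4 were well above the other 3. KI cells had 14.2, 28.1, 21.5 and 30.9 CPM on control diet and 348, 337, 167, 231 and 171 on the NASH diet. Neither pair of groups overlapped, and the log2 fold changes were 2.12 ± 0.40 (SE), adjusted p = 0.0133 in WT and 3.38 ± 0.43 (SE), adjusted p = 0.000359 in KI. The WT call was lost when only the 2 groups compared were fitted (adjusted p = 0.0641). Female WT macrophages had 9.22, 10.8, 24.3 and 39.6 CPM on control diet and 45.9 at the lowest, 89.8 at the median and 137 at the highest on the NASH diet, again without overlap (log2 fold change 2.19 ± 0.46 (SE), adjusted p = 0.00754). Female KI macrophages had 48.5, 95.6, 30.6 and 66.8 CPM on control diet, and their NASH libraries, 52.2 to 248 CPM, overlapped with them (log2 fold change 1.15 ± 0.44 (SE), adjusted p = 0.146). KI and WT cells on control diet overlapped too, with a log2 difference of 1.55 ± 0.48 (SE), adjusted p = 0.0667.

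Gpnmb encodes a transmembrane glycoprotein of the endosomal and lysosomal membrane. In male liver of WT mice it was at 0.209, 0.248 and 0.467 CPM on control diet and at 48.4, 15.7, 59.6 and 25.2 on the NASH diet, a log2 fold change of 6.63 ± 0.95 (SE), adjusted p = 0.000912. KI livers had 1.45, 0.289, 0.0984 and 3.2 CPM on control diet and 0.866, 0.731, 0.133 and 0.376 on the NASH diet. No KI NASH library reached 1 CPM and every WT NASH library exceeded 15, so the groups were far apart, and KI was lower by -5.99 ± 0.76 (SE), adjusted p = 0.00013 on the log2 scale. The diet effect itself differed between genotypes, with an interaction of -7.95 ± 1.24 (SE), adjusted p = 0.0123 on the log2 scale. In female liver Gpnmb was at 0.42, 0.32, 0.43 and 0.188 CPM in WT on control diet and 0.607, 7.48, 6.17 and 1.84 on the NASH diet. These did not overlap, but the log2 fold change of 3.52 ± 0.81 (SE), adjusted p = 0.103, did not pass the threshold.

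Sorted macrophages of male WT mice had 0.614, 9.17, 1.21 and 0.839 CPM of Gpnmb on control diet and 69.7, 599, 20.5, 899 and 13.5 on the NASH diet. In male KI macrophages the values were 1.72, 1.78, 1.12 and 0.121 CPM on control diet and 1293, 1078, 657, 859 and 55.3 on the NASH diet. On the NASH diet, replicates 2 and 4 of WT and the KI libraries other than replicate 5 had 599 CPM or more, whereas replicates 1, 3 and 5 of WT and replicate 5 of KI had 69.7 or less. The log2 fold changes were 6.61 ± 1.43 (SE), adjusted p = 0.0176 in WT and 9.34 ± 1.65 (SE), adjusted p = 0.00147 in KI, and KI minus WT on the NASH diet was 1.33 ± 1.00 (SE), adjusted p = 0.512. The WT call was lost without WT control replicate 3 or 4 (adjusted p up to 0.0539) and when only the 2 groups compared were fitted (adjusted p = 0.0705). Female WT macrophages had 0.953, 1.17, 1.75 and 1.29 CPM on control diet and 29.1 at the lowest, 126 at the median and 236 at the highest on the NASH diet (log2 fold change 6.64 ± 1.23 (SE), adjusted p = 0.00358). Female KI macrophages on control diet stood at 11.4, 49.3, 5.12 and 3.36 CPM, all above the WT control libraries, though the difference did not pass the test (log2 3.79 ± 1.20 (SE), adjusted p = 0.072).

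**Figure D2:**
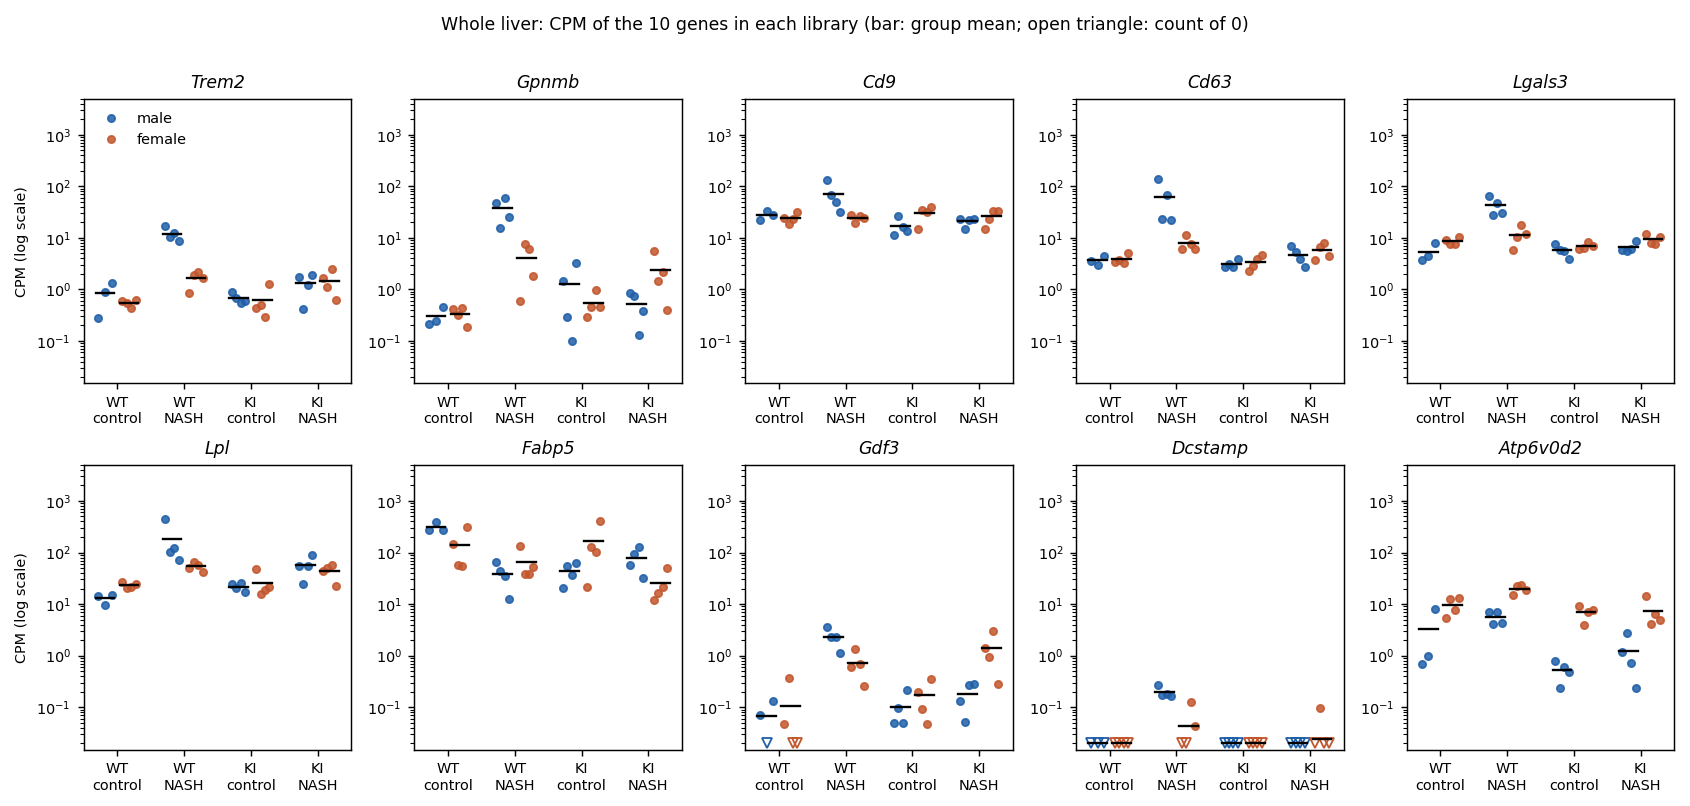
CPM on a log scale of each of the 10 genes in every liver library, by genotype and diet (x axis), with males and females in separate colours, bars at group means and open triangles for counts of 0. In males the WT NASH libraries stand above the other male groups for Trem2, Gpnmb, Cd63, Lgals3 and Gdf3, for example 8.58 to 16.8 against 0.417 to 1.93 CPM of Trem2 in KI NASH.

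Cd9 and Cd63 are tetraspanins, proteins that organize membrane domains, with Cd63 sorted to late endosomes and exosomes. Reads of Cd9 are uncertain where the strand setting of the counting matters, since the gene shares exonic bases with Gm26728 on the other strand, and both genes have a pseudogene of similar name (Cd9-ps and Cd63-ps). In male liver of WT mice Cd63 was at 3.56, 2.97 and 4.53 CPM on control diet and 137, 22.8, 68.1 and 22.1 on the NASH diet. KI livers had 2.74, 3.13, 2.75 and 3.84 and 6.93, 5.43, 3.84 and 2.68 CPM on the same diets. The WT NASH libraries lay above all others, and the log2 fold changes were 3.77 ± 0.56 (SE), adjusted p = 0.00107 for diet in WT, -3.48 ± 0.48 (SE), adjusted p = 0.000204 for KI against WT on the NASH diet and -3.19 ± 0.72 (SE), adjusted p = 0.0467 for the interaction. The interaction rests on the full set of libraries, as it lost the threshold when any of 12 of the 15 was left out, with an adjusted p of up to 0.135.

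Cd9 in male liver was at 22.5, 33.9 and 28.1 CPM in WT on control diet and 130.3, 68.6, 49.8 and 32.4 on the NASH diet, which overlapped (log2 fold change 1.01 ± 0.36 (SE), adjusted p = 0.0575). KI livers on the NASH diet had 23.3, 14.8, 22.5 and 23.1 CPM, below every WT NASH library, with a log2 difference of -1.54 ± 0.33 (SE), adjusted p = 0.00291. In sorted macrophages Cd9 rose with the diet in both male genotypes and in female WT cells. Male WT cells went from 6.96 to 14.5 CPM on control diet to 85, 131, 56.7, 127 and 34.3 on the NASH diet (log2 fold change 2.87 ± 0.36 (SE), adjusted p = 0.00193, or 0.0518 when only the 2 groups compared were fitted), and male KI cells from 4.49 to 8.44 to 169.6, 141, 119, 146 and 91 (log2 fold change 4.30 ± 0.39 (SE), adjusted p = 5.72e-05). No NASH library overlapped with its control group in males. Female WT cells rose from 5.64, 5.42, 4.78 and 8.22 CPM to 31.1 to 122, by 3.61 ± 0.54 (SE), adjusted p = 0.000789 on the log2 scale. Female KI cells on control diet had 37, 40.4, 16.4 and 17.5 CPM, above every WT control library, and this difference passed the test at 2.23 ± 0.54 (SE), adjusted p = 0.0243. On the NASH diet female KI cells had 28.4 at the lowest and 213 at the highest CPM, a log2 fold change of 1.62 ± 0.47 (SE), adjusted p = 0.0666, and the interaction was -1.99 ± 0.66 (SE), adjusted p = 0.288. The call for KI against WT on control diet was lost without any 1 of 5 libraries (WT control 1, 2 or 3, KI control 1 or 2), with an adjusted p of up to 0.0824.

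Cd63 in male macrophages was at 3.17, 16.7, 2.68 and 2.78 CPM in WT on control diet and 17.6, 188, 15.1, 148 and 8.31 on the NASH diet, and in KI at 4.02, 3.62, 2.02 and 1.57 and 237, 208, 157, 112 and 16.7. WT control replicate 2 overlapped with the lower NASH libraries. The log2 fold changes were 3.46 ± 1.00 (SE), adjusted p = 0.0427 in WT and 5.68 ± 1.13 (SE), adjusted p = 0.00261 in KI, of which the WT call was lost when any of 11 libraries was left out (adjusted p up to 0.111). Female WT macrophages had 2.17 to 3.59 CPM on control diet and 17.2 to 83.6 on the NASH diet (log2 fold change 4.32 ± 0.81 (SE), adjusted p = 0.00367), and female KI macrophages 6.14 to 35.5 and 14.5 to 213 (log2 fold change 2.28 ± 0.68 (SE), adjusted p = 0.0766).

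Lgals3, which encodes galectin 3, a lectin that binds sugars on damaged membranes, rose in male liver with the diet in WT mice and in macrophages of male KI mice. Male WT livers had 3.7, 4.46 and 8.13 CPM on control diet and 66.2, 28, 46.5 and 29.8 on the NASH diet, and KI livers 7.73, 5.88, 5.51 and 3.89 and 5.84, 5.64, 6.17 and 8.64. The 4 WT NASH livers stood above all other male livers, and the log2 fold changes were 2.72 ± 0.30 (SE), adjusted p = 0.00019 for diet in WT, -2.50 ± 0.26 (SE), adjusted p = 7.22e-05 for KI against WT on the NASH diet and -2.55 ± 0.39 (SE), adjusted p = 0.0123 for the interaction. Male macrophages had 466 to 521 CPM in WT on control diet and 775, 892, 665, 757 and 446 on the NASH diet (log2 fold change 0.43 ± 0.18 (SE), adjusted p = 0.154). Male KI macrophages went from 444 to 505 to 1094, 879, 866, 801 and 562 CPM without overlap (log2 fold change 0.79 ± 0.18 (SE), adjusted p = 0.00579). In female WT macrophages, 407 to 450.4 CPM on control diet and 451 to 754 on the NASH diet gave a log2 fold change of 0.52 ± 0.17 (SE), adjusted p = 0.0539.

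Lpl encodes lipoprotein lipase, which frees fatty acids from circulating triglyceride. Male WT livers had 14, 9.76 and 15.1 CPM on control diet and 444, 101, 121 and 72.4 on the NASH diet, and KI livers 24.5, 20.8, 25.3 and 16.8 and 55.8, 24.7, 55.5 and 89.2. WT NASH replicate 1 stood apart at 444 CPM, and KI NASH replicate 4 overlapped with the WT NASH range. The diet effect in WT was 3.51 ± 0.56 (SE), adjusted p = 0.00148 on the log2 scale, and KI against WT on the NASH diet was -1.48 ± 0.45 (SE), adjusted p = 0.0201, a call that was lost when replicate 1 of WT NASH was left out, or replicate 2 of KI NASH (adjusted p up to 0.108). In male macrophages Lpl was at 1103, 881, 1179.6 and 1117 CPM in WT on control diet and 1591, 3084, 1418, 2781 and 1209 on the NASH diet, which did not overlap but did not pass the test (log2 0.82 ± 0.31 (SE), adjusted p = 0.111). Male KI macrophages had 1004, 791, 839 and 1263 and 3169, 3123, 1671, 2440.3 and 1173 CPM, with a log2 fold change of 1.23 ± 0.32 (SE), adjusted p = 0.0102. Neither female genotype changed past the threshold (log2 0.73 in WT, adjusted p = 0.135, and 0.29 in KI, adjusted p = 0.674).

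Fabp5 fell with the diet in male WT liver, where 6 other members rose. Male WT livers had 276, 383 and 268 CPM on control diet and 64.4, 43.2, 35.7 and 12.7 on the NASH diet, so the gene fell by 3.30 on the log2 scale (-3.30 ± 0.51 (SE), adjusted p = 0.00134). Male KI livers were at 20.8, 55.8, 36.1 and 63.2 CPM on control diet and 57.3, 92.4, 125 and 32 on the NASH diet. The KI control livers thus lay far below the WT control livers, by -2.91 ± 0.50 (SE), adjusted p = 0.0137 on the log2 scale, and the interaction was 4.09 ± 0.68 (SE), adjusted p = 0.0194. The interaction was lost without WT control replicate 2 or WT NASH replicate 3 (adjusted p up to 0.0557). Replicate 3-4 of WT control, in which Xist went against the male label, had 268 CPM, close to the other WT control livers. In female liver the spread was wide, with 21.9, 129, 103 and 402 CPM in KI on control diet and 12.2, 16.7, 21 and 50.7 on the NASH diet, and the log2 fold change there was -2.93 ± 0.79 (SE), adjusted p = 0.0328. That female call was lost when any of 5 libraries was left out (adjusted p up to 0.127).

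In sorted macrophages Fabp5 passed the test for a rise with the NASH diet in all 4 combinations of sex and genotype, and 3 of these calls were lost in other analyses. Male WT cells had 2.71, 1.94, 2.95 and 3.72 CPM on control diet and 10.1, 47, 5.16, 52.6 and 10.4 on the NASH diet (log2 fold change 3.05 ± 0.70 (SE), adjusted p = 0.02). Male KI cells had 4.82, 4.48, 4.36 and 5.09 and 89.6, 79, 66.5, 61.7 and 9.35 CPM (log2 fold change 3.69 ± 0.70 (SE), adjusted p = 0.00203). Female WT cells went from 2.1 to 3.69 to 5.08 to 15 CPM (log2 fold change 2.05 ± 0.52 (SE), adjusted p = 0.0189) and female KI cells from 2.0 to 3.16 to 3.15 to 41.8 (log2 fold change 2.61 ± 0.53 (SE), adjusted p = 0.0226). Control and NASH libraries overlapped only in female KI cells, through 1 library. The male WT call was lost when NASH replicate 4 or control replicate 2, 3 or 4 of that genotype was left out (adjusted p up to 0.0624) and when only the 2 groups compared were fitted (0.0676). The female WT call was lost without WT control replicate 1 or 2 (adjusted p up to 0.058) and with a replicate block (0.0516). The female KI call was lost without KI control replicate 1 or 3 (adjusted p up to 0.0935), with only the 2 groups compared (0.133) and with a replicate block (0.0961). The diet effect in macrophages minus that in liver was 6.22 ± 0.91 (SE), adjusted p = 9.79e-05 in male WT mice, 2.87 ± 0.84 (SE), adjusted p = 0.0227 in male KI, 3.15 ± 0.95 (SE), adjusted p = 0.0461 in female WT and 5.51 ± 0.99 (SE), adjusted p = 0.00099 in female KI mice. Of these, the female WT difference was lost when any of 22 libraries was left out (adjusted p up to 0.115), and the male KI difference without KI control or KI NASH replicate 4 of the liver (up to 0.0509). The symbol Fabp5l2 names a similar gene, and reads shared with it are uncertain. Its relative Fabp4, an adipocyte and macrophage fatty acid carrier, rose in male WT livers by 2.37 ± 0.39 (SE), adjusted p = 0.00189 on the log2 scale and in male WT macrophages by 3.47 ± 0.65 (SE), adjusted p = 0.0131, and so did not share the fall in liver.

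Gdf3 encodes a secreted ligand of the TGF-β family that is produced by macrophages of obese fat tissue. Among female macrophages on control diet it had the largest log2 difference between genotypes of the 10 genes: WT cells had 1.33, 1.22, 0.919 and 1.54 CPM, whereas KI cells had 33.6, 131, 54.4 and 96.4. The groups did not overlap, and KI was higher by 5.98 ± 0.46 (SE), adjusted p = 8.56e-07 on the log2 scale. On the NASH diet WT cells had 41.6 at the lowest, 69.7 at the median and 108 at the highest CPM and KI cells 88.1 at the lowest, 126 at the median and 171 at the highest. The diet effect was therefore 5.86 ± 0.45 (SE), adjusted p = 7.9e-07 in WT and 0.70 ± 0.31 (SE), adjusted p = 0.225 in KI, and the interaction was -5.16 ± 0.53 (SE), adjusted p = 8.59e-05. The calls for KI against WT on control diet, for diet in WT and for the interaction held in every alternative analysis run.

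Male macrophages were low in both genotypes on control diet, with Gdf3 at 2.36, 4.3, 2.1 and 1.57 CPM in WT and 1.49, 0.977, 0.854 and 1.45 in KI. On the NASH diet they had 4.54, 32.8, 5.81, 38.8 and 6.09 CPM in WT and 45.5, 55.4, 37.1, 53.6 and 9.77 in KI. The higher libraries in WT were again replicates 2 and 4, and the lowest in KI was replicate 5. Log2 fold changes for diet were 2.65 ± 0.68 (SE), adjusted p = 0.0282 in WT and 5.06 ± 0.78 (SE), adjusted p = 0.000774 in KI. The WT call was lost when any of 6 libraries was left out (adjusted p up to 0.0767) and when only the 2 groups compared were fitted (0.0859). In male liver Gdf3 was at 0 to 0.133 CPM in WT on control diet, 1.12 to 3.63 in WT on the NASH diet, 0.0492 to 0.213 in KI on control diet and 0.0522 to 0.282 in KI on the NASH diet. The log2 fold changes were 4.85 ± 0.72 (SE), adjusted p = 0.00104 for diet in WT and -3.41 ± 0.51 (SE), adjusted p = 0.00033 for KI against WT on the NASH diet. Female KI livers had 0.194, 0.0914, 0.0479 and 0.35 CPM on control diet and 1.42, 0.933, 3.0 and 0.279 on the NASH diet, which passed the threshold narrowly (2.79 ± 0.84 (SE), adjusted p = 0.0498), overlapped between groups and was lost when any of 11 libraries was left out (adjusted p up to 0.163).

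Dcstamp, a membrane protein needed for the fusion of macrophages into multinucleated cells and osteoclasts, was close to undetected in liver. It had a count of 0 in 24 of 31 liver libraries, and 22 counts in all in the other 7, which included all 4 male WT NASH livers at 0.271, 0.172, 0.181 and 0.166 CPM. A count of 0 in the remaining libraries allows 0.10 to 0.209 CPM, and the gene was too low to test in liver. Male WT macrophages had 0.0512, 0.344, 0.134 and 0.157 CPM on control diet and 0.493, 11, 2.12, 8.15 and 0.0411 on the NASH diet (log2 fold change 4.49 ± 1.32 (SE), adjusted p = 0.0464). Male KI macrophages had 0.115, 0, 0.0449 and 0.0606 and 13.5, 16.4, 14, 11.5 and 0.0917 CPM (log2 fold change 7.49 ± 1.59 (SE), adjusted p = 0.00349). WT replicates 1 and 5 and KI replicate 5 were low on the NASH diet, and the WT call was lost when any of 14 libraries was left out (adjusted p up to 0.115). Female macrophages had 0.0381 to 0.175 CPM in WT on control diet and 1.07 to 8.87 on the NASH diet (log2 fold change 5.44 ± 0.91 (SE), adjusted p = 0.00161), and in KI 0.0403 to 0.358 and 0.565 to 9.34 (log2 fold change 4.20 ± 0.79 (SE), adjusted p = 0.0226), without overlap in either genotype.

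Atp6v0d2 encodes the osteoclast and macrophage form of the d subunit of the proton pump V-ATPase, which acidifies lysosomes. In male macrophages it was at 0.922, 2.02, 0.938 and 0.577 CPM in WT on control diet and 3.12, 50, 1.85, 26.7 and 1.27 on the NASH diet, and in KI at 0.746, 0.402, 0.629 and 1.03 and 72.7, 55.1, 50.3, 27.2 and 2.02. The log2 fold changes were 3.77 ± 1.12 (SE), adjusted p = 0.0474 in WT, lost when any of 14 libraries was left out (adjusted p up to 0.115), and 5.86 ± 1.25 (SE), adjusted p = 0.0035 in KI. Female macrophages rose in WT from 0.838 to 1.47 to 2.5 to 25 CPM (3.47 ± 0.84 (SE), adjusted p = 0.0145 on the log2 scale) and in KI from 1.09 to 1.55 to 1.88 to 52.3 CPM (3.41 ± 0.82 (SE), adjusted p = 0.0385). The ubiquitous form Atp6v0d1 was at 134 to 152 CPM in male KI macrophages on control diet and 130.3 to 164 on the NASH diet, with a log2 fold change of 0.02 ± 0.09 (SE), adjusted p = 0.901.

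In liver, Atp6v0d2 varied with sex and with single libraries. Male WT control livers had 0.698, 0.991 and 8.0 CPM, the highest being replicate 3-4, in which Xist went against the male label, and WT NASH livers had 6.98, 4.13, 7.15 and 4.27. Male KI livers had 0.798, 0.241, 0.59 and 0.48 CPM on control diet and 1.17, 2.71, 0.734 and 0.235 on the NASH diet. Female WT livers had 5.27, 12.7, 7.7 and 13.3 and 15.2, 22, 24 and 18.4 CPM, all within or above the male WT NASH range. KI against WT on the NASH diet was -2.05 ± 0.68 (SE), adjusted p = 0.0283 in males, a call lost when replicate 3 of WT NASH was left out, or replicate 1, 3 or 4 of KI NASH (adjusted p up to 0.0759). The diet effect in male WT livers was 0.65 ± 0.70 (SE), adjusted p = 0.526, and 2.34 with an adjusted p of 0.0262 without replicate 3-4.

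**Figure D3:**
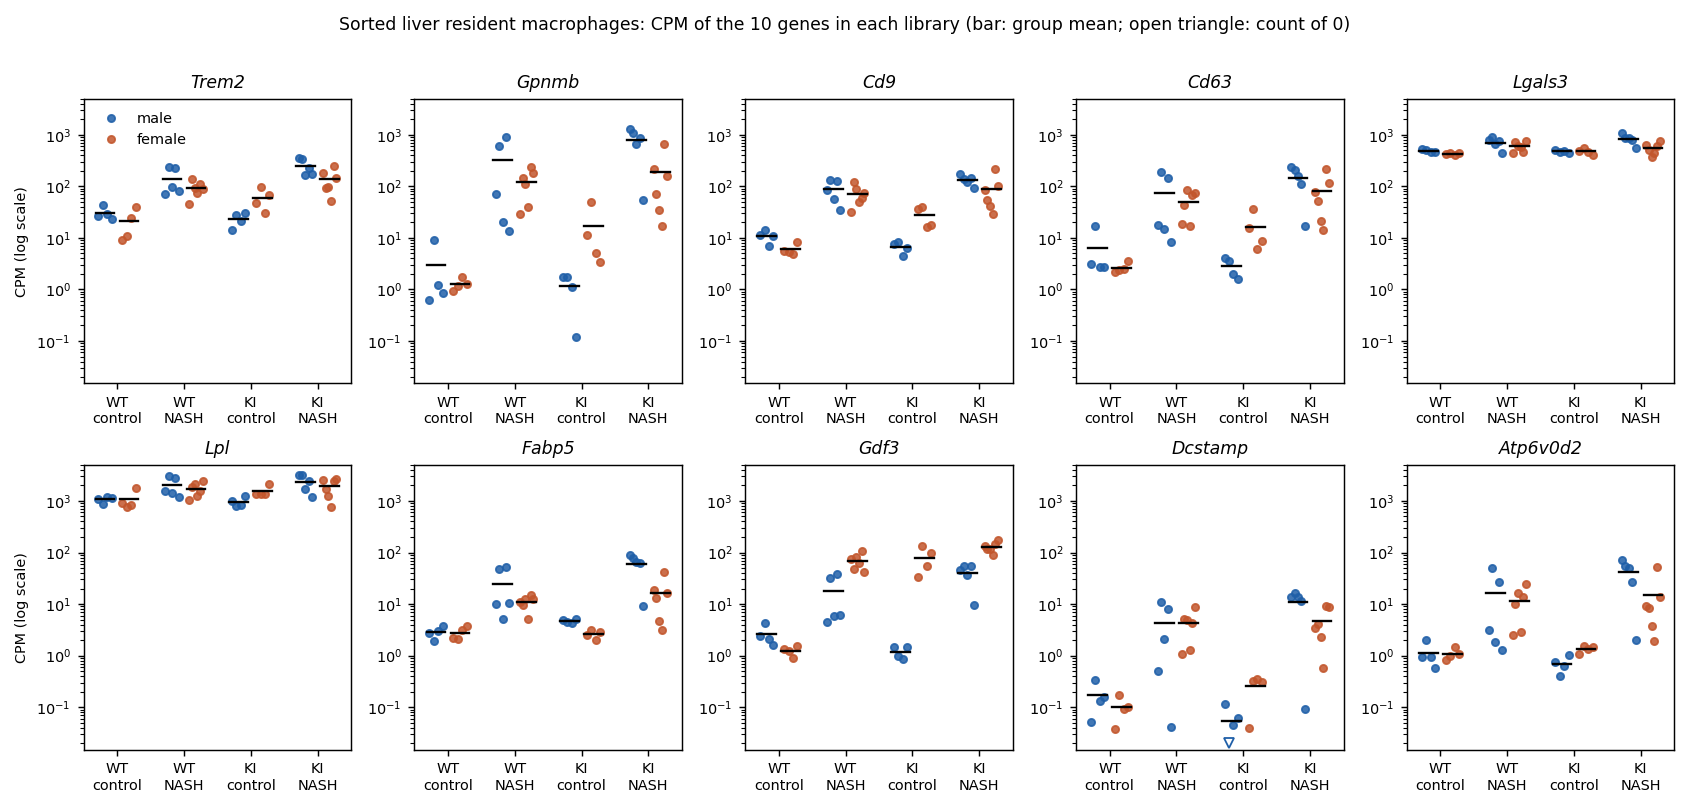
CPM on a log scale of each of the 10 genes in every sorted macrophage library, by genotype and diet (x axis), with males and females in separate colours, bars at group means and open triangles for counts of 0. Single NASH libraries depart from their group in several genes at once, such as male KI replicate 5, with 55.3 CPM of Gpnmb where the other 4 libraries have 657 to 1293.

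In male liver the genes changed with the NASH diet in WT mice: 6 of the 9 that could be tested rose, where 11.3% of all genes did, and Fabp5 fell, where 9.74% did. The median log2 fold change was 3.51, against -0.01 over all genes. In KI mice none of the 9 changed, but neither did any of all 12988 genes tested with edgeR (0%), where an unadjusted p under 0.05 was found for 847 genes, 2 of them members, and DESeq2 called 43 genes and no member. The direct comparison of KI with WT on the NASH diet, which shares the WT NASH libraries with the diet comparison, had 8 of 9 genes lower, where 17.4% of all genes were. Fabp5 was the exception, at 1.18 ± 0.46 (SE), adjusted p = 0.0568. On control diet Fabp5 alone was lower in KI (1.92% of all genes were). The interaction was negative for Gpnmb, Cd63 and Lgals3 (3 of 9, against 0.577% of all genes) and positive for Fabp5 (1 of 9, against 0.554%).

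Genes of several further lists, chosen with earlier results of these data known, also moved in male liver. Which cells of the liver their RNA came from was not tested. Of 13 further lipid-associated macrophage genes, 12 rose with the diet in WT (11.3% of all genes did), with a median log2 fold change of 2.30. Among them were Anxa5 (2.20 ± 0.13 (SE), adjusted p = 7.02e-07), Mmp12 (5.68 ± 0.59 (SE), adjusted p = 0.000113) and Lgals1 (2.96 ± 0.39 (SE), adjusted p = 0.000484). All 13 were lower in KI than in WT on the NASH diet (17.4% of all genes were), with a median of -2.21. Genes of Trem2 signalling rose in 6 of 7 cases with the diet in WT, led by its adaptor Tyrobp (1.07 ± 0.20 (SE), adjusted p = 0.00384), and 4 of 7 were lower in KI on the NASH diet. Of 19 genes of lysosomal and lipid handling, 10 rose in WT, and in KI against WT on the NASH diet 9 were lower and 1 was higher (19.6% of all genes were higher). V-ATPase subunits rose in 1 of 15 cases in WT (11.3% of all genes did), and 5 of 15 were lower in KI on the NASH diet (17.4%).

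Markers of several cell types moved in male liver together with the members. The summed level of 8 recruited monocyte markers was 9.07 to 24.7 CPM in WT on control diet, 36.3 to 97.3 in WT on the NASH diet and 12.4 to 27.6 in KI on the NASH diet. For 6 cholangiocyte markers the ranges were 4.21 to 6.46, 10.1 to 83.6 and 5.03 to 9.05 CPM, and for 6 stellate cell and fibroblast markers 273 to 505, 677 to 1661 and 289.7 to 404. The 10 general macrophage markers summed to overlapping ranges of 347 to 421, 359 to 511 and 233 to 453 CPM. Of single genes on that list, Cd68 had 10.3 to 26.1, 33.5 to 52.6 and 15.1 to 24.7 CPM in these groups. Csf1r had 44.1 to 99.6, 96.7 to 124 and 63.6 to 104. Adgre1 had 9.71 to 26.7, 26.9 to 45.1 and 17.6 to 34.8, so its KI and WT NASH livers overlapped. These genes do not stand for the whole list, whose sum did not separate the groups. The sum is made up differently in liver, however. In male WT mice on control diet the median of Csf1r was 53.5 CPM in liver, where the list had a median sum of 388. In sorted macrophages these medians were 7313 and 19252. Which liver cells gave the rest of the sum was not tested. The 10 Kupffer cell markers summed to 669 to 779, 623 to 919.7 and 719 to 1147 CPM, ranges that overlapped. No marker of these lists was at 0 in every library of a group, and the part of these markers in the result was not tested. Replicate 1 of the WT NASH group was the highest of its group for 8 of the 10 members. Without it the count of members past the threshold was 7 of 9 for diet in WT.

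Female liver showed few calls of any kind in WT mice. None of 9 genes changed with the diet in WT by edgeR, where 0.0526% of all genes did, although DESeq2 called 3, and 6 of the 9 had an unadjusted p under 0.05. Their median log2 fold change was 1.01, against -0.00 over all genes. In KI mice Gdf3 rose (4.21% of all genes did) and Fabp5 fell (4.63%). No member passed the threshold for KI against WT on the NASH diet (0.0901% of all genes, 1 member at an unadjusted p under 0.05 and 1 called by DESeq2), on control diet (7.57%) or in the interaction (4.77%). On control diet and in the interaction, DESeq2 called no member and none had an unadjusted p under 0.05.

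**Figure D4:**
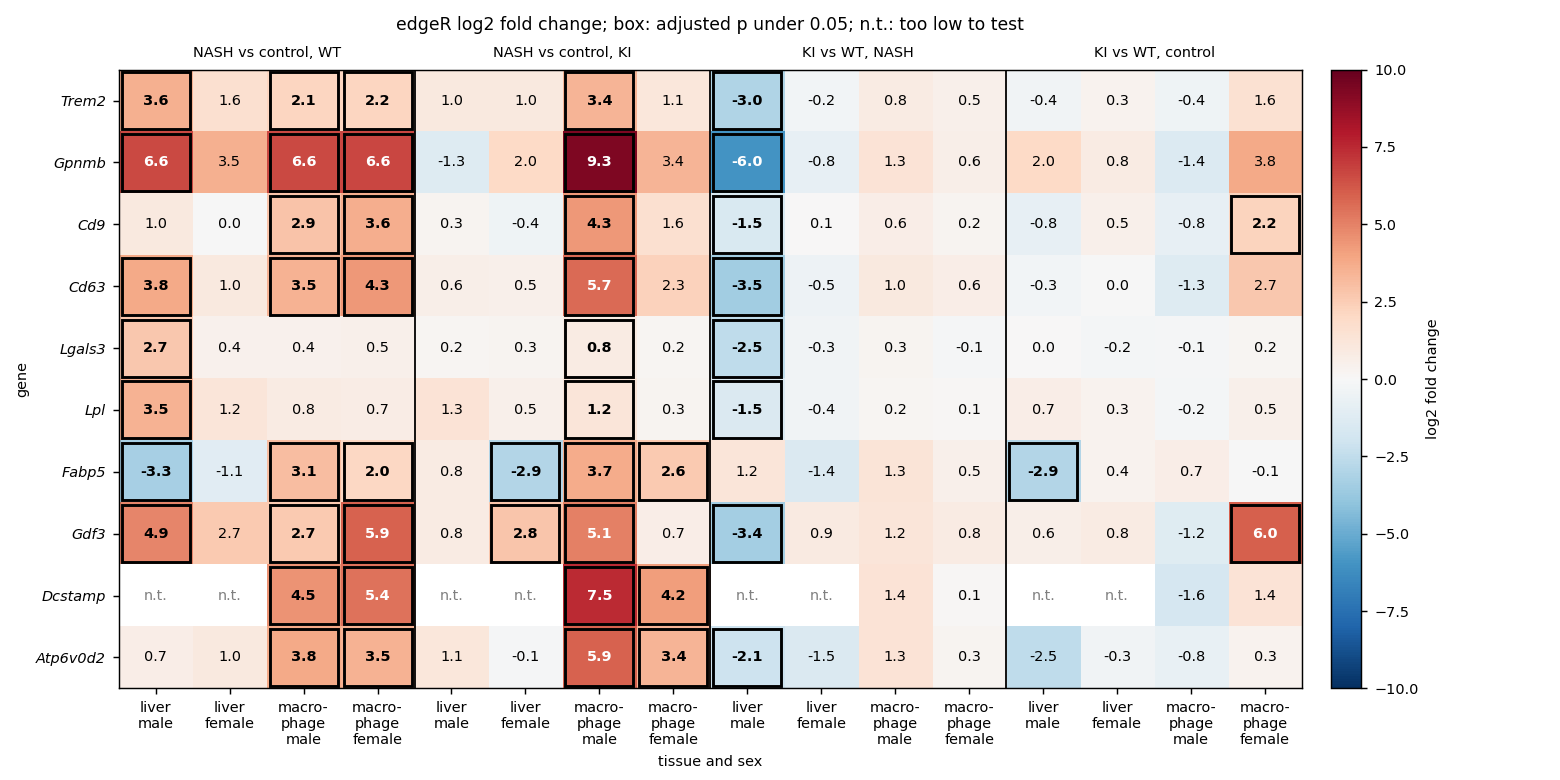
Log2 fold changes of the 10 genes (rows) for each comparison of diet and genotype in each tissue and sex (columns), with boxes around values with an adjusted p under 0.05 and n.t. for genes too low to test. The column of KI against WT on the NASH diet in male liver holds 8 boxed negative values, and the diet effect in male KI macrophages 10 boxed positive ones.

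In sorted male macrophages the set rose with the NASH diet in both genotypes. In WT cells 8 of 10 genes rose (5.36% of all genes did), with a median log2 fold change of 2.96 against 0.01 over all genes. In KI cells all 10 rose (15.1%), with a median of 4.68 against 0.01. The WT count was less firm: it was 2 without WT control replicate 3 or 4, of which replicate 4 had the contradicting sex genes, 2 to 9 over all libraries left out in turn, and 0 when only the 2 groups compared were fitted. The KI count was 10 in every alternative run. No member differed between KI and WT on the NASH diet (3.13% of all genes, 3 members at an unadjusted p under 0.05 and 0 by DESeq2), on control diet (0%, 1 at an unadjusted p under 0.05 and 0 by DESeq2) or in the interaction (0%, 3 at an unadjusted p under 0.05 and 0 by DESeq2).

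Of the 13 further lipid-associated macrophage genes, 4 rose in male WT macrophages (5.36% of all genes did) and 7 in male KI macrophages (15.1%). The median log2 fold changes were 0.45 and 1.19. Lgals1, another galectin, was at 3.12 ± 0.49 (SE), adjusted p = 0.00772 in WT and 3.70 ± 0.50 (SE), adjusted p = 0.00047 in KI. The lysosomal and lipid handling genes rose in 1 of 19 cases in WT (5.36% of all genes did) and fell in 1 (2.83%). In KI 8 rose (15.1%), among them the lipid droplet protein Plin2 (1.02 ± 0.22 (SE), adjusted p = 0.00434) and the protease Ctsd (0.56 ± 0.14 (SE), adjusted p = 0.00853), and 1 fell. Trem2 signalling genes did not rise in either genotype. In KI, 5 of 8 fell (8.94% of all genes did), Tyrobp by -0.41 ± 0.09 (SE), adjusted p = 0.00483 on the log2 scale, while Trem2 itself rose. Of 7 genes of osteoclasts and fusion, the collagen-degrading protease Ctsk (1.92 ± 0.45 (SE), adjusted p = 0.00602), the fusion protein Ocstamp (4.33 ± 1.01 (SE), adjusted p = 0.00614) and the integrin Itgb3 (2.79 ± 0.77 (SE), adjusted p = 0.015) rose in KI (15.1% of all genes did). None of the 7 changed in WT.

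Markers of several cell types moved with the diet in these cells, where 5.36% of all genes rose in WT and 15.1% in KI. The 10 Kupffer cell markers summed to 32149 to 35684 CPM in male WT macrophages on control diet and 21242 to 34876 on the NASH diet, and in KI to 32655 to 35717 and 13821 to 33285, with 2 of 10 markers lower in WT (2.83% of all genes were) and 7 in KI (8.94%). The 10 general macrophage markers did not overlap in sum between the diets, at 18282 to 19842 CPM on control diet and 13745 to 16131 on the NASH diet in WT, and at 18058 to 19723 and 11422 to 14827 in KI. Within the WT NASH group, replicates 2 and 4, the high libraries for Gpnmb, Cd63, Gdf3 and Fabp5, had sums of 21686 and 21242 CPM, and the other 3 had 28941 to 34876. In the KI NASH group, replicate 5, the lowest library for 9 of 10 members, had 33285 CPM and the other 4 had 13821 to 20995. Libraries with high members thus had low Kupffer cell sums in both groups. The 8 hepatocyte markers summed to 113 to 466 CPM on control diet and 65.4 to 329 on the NASH diet in WT, with none called, and to 172 to 254 and 459 to 2608 in KI, with all 8 higher. The 6 sinusoidal endothelial markers summed to 701 to 1103 and 1115 to 3027 CPM in WT, with 4 higher. In KI they summed to 1285 to 1451 and 929 to 3288, with 1 of 6 higher, close to the share of all genes. The 8 recruited monocyte markers summed to 220 to 339 and 207 to 491 CPM in WT, with 3 higher, and to 219 to 403 and 248 to 592 in KI, with 6 higher and 1 lower. The 6 stellate cell and fibroblast markers summed to 34.5 to 107 and 24.8 to 184 CPM in WT, with none called, and to 32.5 to 80.7 and 84 to 238 in KI, with 3 higher. No marker of these 6 lists was at 0 in every library of a group. The part of these markers in the result was not tested.

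In female macrophages most members rose with the diet in WT mice, and 3 did in KI mice; the difference between the genotypes passed the test for Gdf3 alone. In WT cells 8 of 10 genes rose (8.44% of all genes did), with a median log2 fold change of 3.54 against -0.01 over all genes. In KI cells Fabp5, Dcstamp and Atp6v0d2 rose (3 of 10, against 1.79%), with a median of 1.95 against -0.01. This KI count was 0 without KI control replicate 1 or 3, with only the 2 groups compared and with a replicate block, and 6 without KI NASH replicate 3 or 4. KI cells on control diet had higher Gdf3 and Cd9 than WT cells (2 of 10, against 2.73%), and only Gdf3 passed the interaction (1 of 10 lower, against 0.0935%). No member differed between KI and WT on the NASH diet (0.561% of all genes, 1 member at an unadjusted p under 0.05 and 0 by DESeq2).

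In female WT macrophages 7 of the 13 further lipid-associated macrophage genes rose (8.44% of all genes did), with a median log2 fold change of 0.83. The elastase Mmp12 led them (5.21 ± 0.78 (SE), adjusted p = 0.000789), and 3 rose in KI (1.79% of all genes did). Of the lysosomal and lipid handling genes 5 of 19 rose in WT (8.44% of all genes did) and 2 in KI (1.79%). Among those that rose in WT was Apoe (1.10 ± 0.16 (SE), adjusted p = 0.000768), the apolipoprotein that carries exported lipid. V-ATPase subunits rose in 3 of 16 cases in WT (8.44% of all genes did) and in none in KI (1.79%). No gene of Trem2 signalling changed in either genotype. The Kupffer cell markers summed to 34871 to 38157 CPM in WT on control diet and 24975 to 33979 on the NASH diet, and in KI to 29052 to 30617 and 18299 to 31656. KI NASH replicate 5, the highest library for 7 of 10 members, had the sum of 18299 CPM, the lowest of its group. Replicate 1 had the highest sum, 31656 CPM, with Gpnmb at 214 CPM. Replicate 4, the lowest library for 9 of 10 members, had a sum of 26957 CPM. Low Kupffer cell sums thus did not go with high members throughout the female KI NASH group. The general macrophage markers summed to 18427 to 20668 and 14809 to 17043 CPM in WT, without overlap, and to 17095 to 17975 and 14299 to 17210 in KI, which overlapped. The hepatocyte markers summed to 118 to 331 and 214 to 1689.9 CPM in WT and to 23.6 to 66.3 and 55.4 to 660.0 in KI. The part of these markers in the result was not tested.

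The sexes differed in liver, while in macrophages no member passed the test in the contrasts of sex that were run. The diet effect in WT liver was smaller in females than in males for Cd63 (-2.72 ± 0.58 (SE), adjusted p = 0.0174 on the log2 scale) and Lgals3 (-2.26 ± 0.41 (SE), adjusted p = 0.00835), that is for 2 of 9 genes, where 0.827% of all genes had a lower effect. Without male WT control replicate 2 the Cd63 difference was lost (adjusted p = 0.0584). The KI effect on the NASH diet was higher in females than in males for 6 of 9 genes (5.26% of all genes): Trem2, Gpnmb, Cd9, Cd63, Lgals3 and Gdf3. For Gpnmb it was -5.99 in males and -0.78 in females, a difference of 5.18 ± 1.05 (SE), adjusted p = 0.00188, and for Trem2 -2.97 and -0.24, a difference of 2.71 ± 0.59 (SE), adjusted p = 0.00339. The Cd9 difference was lost without male WT NASH replicate 1 (adjusted p = 0.0633). In macrophages no member differed between the sexes in the diet effect in WT (0.0224% of all genes, 1 member at an unadjusted p under 0.05 and 1 by DESeq2) or in the KI effect on the NASH diet (4.37%, no member at an unadjusted p under 0.05 and 0 by DESeq2). The KI effect on control diet was not compared between the sexes. For Gdf3 in macrophages it was 5.98 (adjusted p = 8.56e-07) in females and -1.20 (adjusted p = 0.847) in males on the log2 scale. Male and female livers were deposited in separate tables, so table and sex cannot be told apart in the liver comparisons.

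Whole liver and sorted macrophages parted most in male KI mice. In WT males the diet effect was larger in macrophages than in liver for Cd9 and Fabp5 (2 of 10, against 3.96% of all genes) and smaller for Lgals3 (-2.39 ± 0.34 (SE), adjusted p = 9.79e-05) and Lpl (-2.80 ± 0.60 (SE), adjusted p = 0.0027; 2 of 10, against 8.74%). In KI males it was larger in macrophages for 6 of 10 genes (9.34%), Trem2, Gpnmb, Cd9, Cd63, Fabp5 and Atp6v0d2. The Atp6v0d2 call in KI was lost when any of 25 libraries was left out (adjusted p up to 0.115) and the Trem2 call without liver KI control replicate 1 (0.059). The KI effect on the NASH diet, a contrast added after the values were seen, was higher in male macrophages than in male liver for 8 of 10 genes (14.8%). Trem2 had a log2 KI effect of -2.97 in liver and 0.84 in macrophages, a difference of 3.82 ± 0.54 (SE), adjusted p = 7.31e-05. For Gpnmb the values were -5.99 and 1.33, a difference of 7.36 ± 1.56 (SE), adjusted p = 0.00143, and for Lgals3 -2.50 and 0.26, a difference of 2.77 ± 0.32 (SE), adjusted p = 6.67e-06. Fabp5 and Dcstamp did not pass this test. All 13 further lipid-associated macrophage genes were higher in the same contrast (median 2.26, against 0.11 over all genes), as were 6 of 6 cholangiocyte markers, genes that sorted macrophages of WT mice on control diet held at a summed 0 to 0.58 CPM.

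In females the diet effect was larger in macrophages than in liver for Cd9, Cd63 and Fabp5 in WT (3 of 10, against 3.45% of all genes) and for Cd9, Fabp5 and Atp6v0d2 in KI (3 of 10, against 7.39%). Cd9 in WT had log2 diet effects of -0.01 in liver and 3.61 in macrophages, a difference of 3.60 ± 0.61 (SE), adjusted p = 0.00231. The count in WT was 1 without macrophage WT control replicate 1. No member differed between the tissues in the KI effect on the NASH diet (0.0849% of all genes, 2 members at an unadjusted p under 0.05 and 0 by DESeq2). The sample titles do not say whether the liver and macrophage libraries came from the same mice. Kit, cell sorting, tissue and any difference in mice cannot be told apart in any of these comparisons between the tissues.

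**Figure D5:**
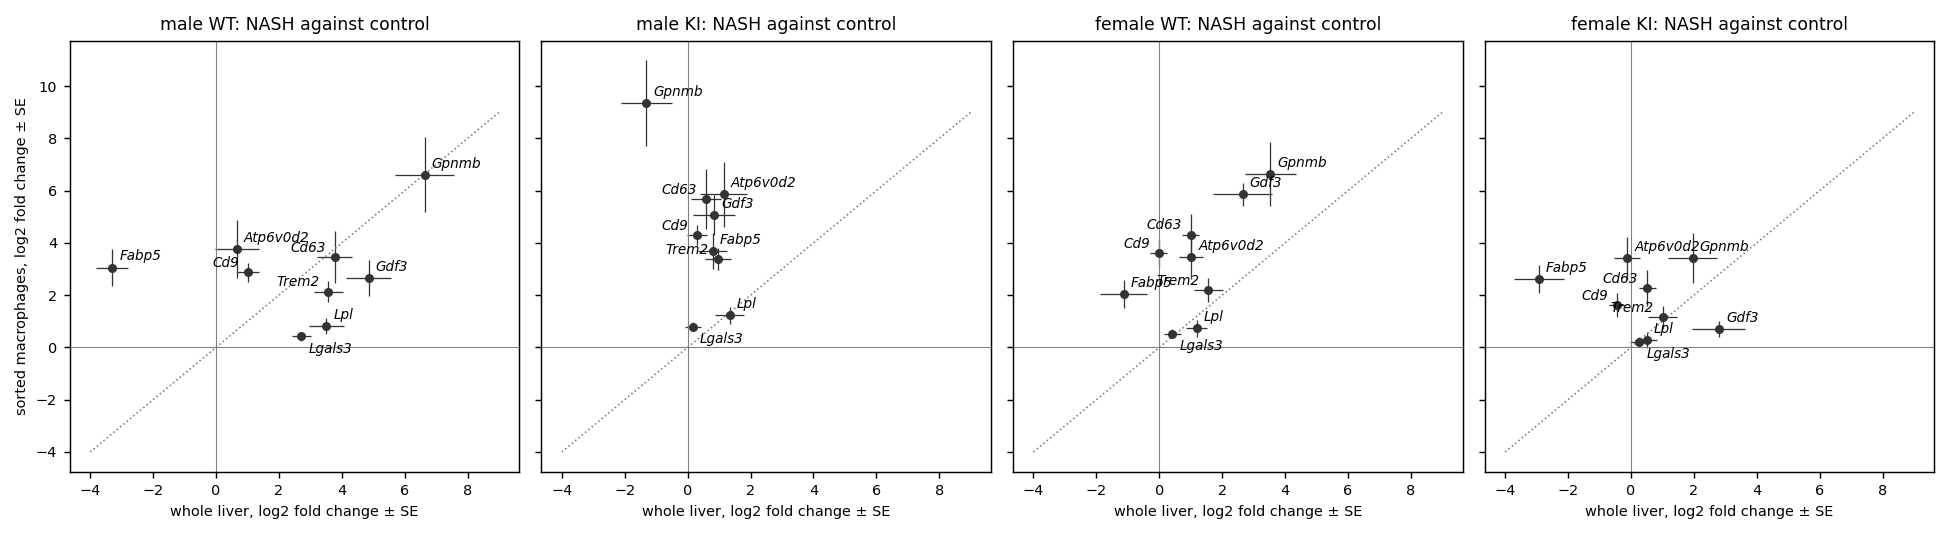
Log2 fold change of NASH against control diet in whole liver (x axis) and in sorted macrophages (y axis), ± SE, for each member tested in both, in panels by sex and genotype, with a dotted line where both are equal. In male KI mice Gpnmb lies at -1.31 in liver and 9.34 in macrophages, far above the line, and in male WT mice at 6.63 and 6.61, close to it.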

How the data were processed

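Poly(A) RNA libraries were prepared, per the labels' protocols, with the Illumina TruSeq Stranded mRNA kit from RNA isolated with illustra RNAspin Mini (liver) or Qiagen miRNeasy micro (macrophages) kits. The authors deposited raw counts per gene symbol in 3 tables, male liver with 23839 symbols and female liver and macrophages with 24982 each. The build was mm10, per the submitters' processing notes, while for the aligner, the counting program and the strand setting nothing was given in the sources used here.

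Counts were fitted with edgeR 4.0.16 in R 4.3.3 (scaled by TMM, filterByExpr with min.count 10 and min.total.count 15, quasi-likelihood test, 1 mean per group), separately for each tissue and sex, for both sexes of a tissue and for both tissues of a sex, which gave 34 comparisons. P-values were adjusted by Benjamini-Hochberg over all genes tested, with a threshold of 0.05, and SE is the log2 fold change divided by the square root of F. CPM are counts per 1000000 of the library total, without TMM. Per kb values divide by the union of exons of GRCm38.p6. Sums of markers add CPM. The test was checked on simulated data with the same spread for all genes. That check does not cover members that vary widely within a group, such as Gpnmb. Pairs of libraries within a group were compared by a chi-square statistic per gene: 1 of 122 pairs had 0.0671 and the others 2.05 to 11.9, and that pair was averaged. Alternatives were DESeq2 1.42.0, RLE size factors, no filter, a replicate block, fits of 2 groups, each library left out, libraries with contradicting sex genes left out, and the duplicated library kept as 2. All 10 members are named in every comparison, and of other lists up to 3 called genes with the smallest p. The members and lists were chosen with earlier results of these data known.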

Additional observations from a re-analysis of the deposited data

Results flagged for a closer look

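Dixon's test was run on 146 sets of 1 gene in 1 group of 4 to 6 libraries. Its limit gives about 1 in 20 for normally distributed values, a rate that skewed CPM or counts of 0 need not follow. Libraries that stood apart were found in 13 of these sets. Those above the rest of the group in liver were Lpl in liver male WT NASH replicate 1 (444 CPM, others 72.4 to 121), Dcstamp in liver male WT NASH replicate 1 (0.271 CPM, others 0.166 to 0.181), Dcstamp in liver female KI NASH replicate 2 (0.0982 CPM, others 0), Gdf3 in liver female WT control replicate 2 (0.366 CPM, others 0 to 0.0467) and Fabp5 in liver female WT NASH replicate 1 (135 CPM, others 37.8 to 53). Those above the rest in macrophages were Gpnmb in macrophage male WT control replicate 2 (9.17 CPM, others 0.614 to 1.21), Cd63 in macrophage male WT control replicate 2 (16.7 CPM, others 2.68 to 3.17), Lpl in macrophage female WT control replicate 4 (1797 CPM, others 755 to 899.6), Lpl in macrophage female KI control replicate 4 (2095 CPM, others 1367 to 1395), Gpnmb in macrophage female KI NASH replicate 5 (667 CPM, others 17.1 to 214) and Atp6v0d2 in macrophage female KI NASH replicate 5 (52.3 CPM, others 1.88 to 13.4). Those below the rest were Cd9 in liver male KI NASH replicate 2 (14.8 CPM, others 22.5 to 23.3) and Dcstamp in macrophage female KI control replicate 1 (0.0403 CPM, others 0.309 to 0.358). Replicate 1 of male WT NASH liver, replicate 2 of male WT control macrophages and replicate 5 of female KI NASH macrophages each stood apart for 2 genes. The values of Dcstamp in liver rest on single counts.

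Differences between groups under the same contrast passed the test in 37 cases, given here as differences of log2 fold changes with edgeR's adjusted p. In male liver the diet effect in KI minus that in WT was Cd63 -3.19 (adjusted p = 0.0467), Fabp5 4.09 (adjusted p = 0.0194), Lgals3 -2.55 (adjusted p = 0.0123) and Gpnmb -7.95 (adjusted p = 0.0123). In female macrophages the same difference was Gdf3 -5.16 (adjusted p = 8.59e-05). The diet effect in WT liver, female minus male, was Cd63 -2.72 (adjusted p = 0.0174) and Lgals3 -2.26 (adjusted p = 0.00835). The KI effect in liver on the NASH diet, female minus male, was Cd63 2.95 (adjusted p = 0.000784), Lgals3 2.15 (adjusted p = 0.00062), Trem2 2.71 (adjusted p = 0.00339), Gpnmb 5.18 (adjusted p = 0.00188), Gdf3 4.32 (adjusted p = 0.00351) and Cd9 1.57 (adjusted p = 0.0188). Between the tissues, as macrophage minus liver, the diet effect in male WT mice differed with Lgals3 -2.39 (adjusted p = 9.79e-05), Fabp5 6.22 (adjusted p = 9.79e-05), Cd9 1.75 (adjusted p = 0.021) and Lpl -2.80 (adjusted p = 0.0027). In male KI mice it differed with Cd63 5.07 (adjusted p = 0.00688), Trem2 2.40 (adjusted p = 0.0177), Fabp5 2.87 (adjusted p = 0.0227), Atp6v0d2 4.70 (adjusted p = 0.0497), Gpnmb 10.63 (adjusted p = 0.00063) and Cd9 3.97 (adjusted p = 7.38e-05). In female WT mice it differed with Cd63 3.30 (adjusted p = 0.0237), Fabp5 3.15 (adjusted p = 0.0461) and Cd9 3.60 (adjusted p = 0.00231). In female KI mice it differed with Fabp5 5.51 (adjusted p = 0.00099), Atp6v0d2 3.49 (adjusted p = 0.0155) and Cd9 2.02 (adjusted p = 0.0212). The KI effect on the NASH diet in males, macrophage minus liver, was Cd63 4.47 (adjusted p = 0.00415), Lgals3 2.77 (adjusted p = 6.67e-06), Trem2 3.82 (adjusted p = 7.31e-05), Atp6v0d2 3.42 (adjusted p = 0.0415), Gpnmb 7.36 (adjusted p = 0.00143), Gdf3 4.63 (adjusted p = 0.000827), Cd9 2.19 (adjusted p = 0.00157) and Lpl 1.70 (adjusted p = 0.0225).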

How the results depend on the processing

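No called member result turned its direction among the 9788 values computed under alternatives. Of 114 called member results, 83 stayed past the threshold in every alternative. With DESeq2 the number of members past the threshold moved by over 1.5 times in male liver for KI against WT on control diet (1 to 2) and the interaction (4 to 7), in female liver for diet in WT (0 to 3) and KI against WT on the NASH diet (0 to 1), in female macrophages for diet in KI (3 to 6) and KI against WT on control diet (2 to 5), and for the sex difference of the diet effect in macrophages (0 to 1). In female liver the diet count in KI went from 2 to 1 with RLE size factors, with no filter and with only the 2 groups compared in the fit, and that in WT from 0 to 1 with only those groups. Fitting only the 2 groups gave 0 in place of 8 for diet in male WT macrophages, 0 in place of 3 for diet in female KI macrophages and 4 in place of 2 for KI against WT on control diet in female macrophages. Leaving out the libraries with contradicting sex genes took the diet count in male WT macrophages from 8 to 2. Keeping both versions of the male liver WT control library as separate libraries took KI against WT on control diet from 1 to 2. The causes were not tested.

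Leaving out 1 library at a time gave counts of 2 to 6 for the interaction in male liver (2 without WT control replicate 2 or WT NASH replicate 3), 0 to 1 for diet in female WT liver (1 without WT NASH replicate 1), 0 to 2 for diet in female KI liver (under 2 without any of 10 libraries), 0 to 1 for KI against WT on the NASH diet in female liver (1 without KI NASH replicate 1), 2 to 9 for diet in male WT macrophages (moved by 11 libraries, which are all of WT control and KI control, WT NASH replicates 2 and 4 and KI NASH replicate 3), 0 to 6 for diet in female KI macrophages, and 1 to 4 for KI against WT on control diet in those cells (1 without WT control replicate 1, 2 or 3 or KI control replicate 1 or 2, and 4 without KI control replicate 4 or KI NASH replicate 5). It gave 1 to 3 for the sex difference of the diet effect in liver (1 without male WT control replicate 2), 0 to 1 for that in macrophages (1 without male WT NASH replicate 2) and 1 to 3 for the tissue difference of the diet effect in female WT mice. In male WT macrophages on the NASH diet, the higher Gpnmb level than in liver was lost without replicate 4.

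Libraries of different groups share replicate numbers in their titles. In no comparison did every pair of same-numbered libraries correlate above 0.1 in their deviations from the group means. The largest number of libraries that correlated best with their own number was 5 of 8. Some pairs did correlate, most of all for KI against WT on the NASH diet in macrophages. There r reached 0.58 in males (3 of 5 pairs above 0.1) and 0.545 in females (3 of 6). In the male NASH macrophage groups, replicate 5 was the lowest library for 7 of 10 members in WT and 9 of 10 in KI. What same-numbered libraries share was not tested. With a replicate block the members past the threshold were 1 in place of 2 for diet in female KI liver, 1 in place of 0 for KI against WT on the NASH diet in male macrophages and 0 in place of 3 for diet in female KI macrophages, and in the other comparisons the count stayed within 1.5 times. Counts over all genes that moved by over 1.5 times were, with only the 2 groups 2730 to 1089 (liver male, diet in WT), 606 to 79 (liver male, KI against WT on control diet), 7 to 4 (liver female, diet in WT), 12 to 6 (liver female, KI against WT on the NASH diet), 1068 to 8 (macrophage male, diet in WT), 408 to 0 (macrophage male, KI against WT on the NASH diet), 0 to 1 (macrophage male, KI against WT on control diet), 297 to 3 (macrophage female, diet in KI) and 72 to 0 (macrophage female, KI against WT on the NASH diet). With DESeq2 0 to 43 (liver male, diet in KI), 606 to 1308 (liver male, KI against WT on control diet), 147 to 711 (liver male, interaction), 7 to 321 (liver female, diet in WT), 1176 to 1777 (liver female, diet in KI), 12 to 156 (liver female, KI against WT on the NASH diet), 1008 to 1595 (liver female, KI against WT on control diet), 635 to 1229 (liver female, interaction), 1068 to 1703 (macrophage male, diet in WT), 408 to 840 (macrophage male, KI against WT on the NASH diet), 0 to 4 (macrophage male, KI against WT on control diet), 0 to 249 (macrophage male, interaction), 297 to 952 (macrophage female, diet in KI), 72 to 554 (macrophage female, KI against WT on the NASH diet), 596 to 1167 (macrophage female, KI against WT on control diet), 37 to 157 (macrophage female, interaction), 225 to 504 (liver: female minus male diet effect, WT), 3 to 265 (macrophage: female minus male diet effect, WT), 765 to 1231 (female: macrophage minus liver diet effect, WT) and 12 to 171 (female: macrophage minus liver KI effect, NASH). Without libraries with contradicting sex genes 0 to 1 (liver male, diet in KI), 147 to 626 (liver male, interaction), 1068 to 284 (macrophage male, diet in WT) and 225 to 664 (liver: female minus male diet effect, WT). With no filter 606 to 396 (liver male, KI against WT on control diet), 7 to 15 (liver female, diet in WT), 72 to 0 (macrophage female, KI against WT on the NASH diet), 37 to 23 (macrophage female, interaction) and 225 to 145 (liver: female minus male diet effect, WT). With a replicate block 606 to 145 (liver male, KI against WT on control diet), 147 to 35 (liver male, interaction), 7 to 1 (liver female, diet in WT), 12 to 7 (liver female, KI against WT on the NASH diet), 1068 to 1952 (macrophage male, diet in WT), 1652 to 747 (macrophage female, diet in WT), 297 to 2 (macrophage female, diet in KI), 72 to 6 (macrophage female, KI against WT on the NASH diet) and 37 to 10 (macrophage female, interaction). With both versions separate 606 to 1307 (liver male, KI against WT on control diet). With RLE size factors 72 to 21 (macrophage female, KI against WT on the NASH diet). Depth limited Dcstamp, and in liver Gdf3, most, since their low groups rest on a few counts per library. Counting intervals and floors cover counting error only.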

Other observations

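Gdf3 lies on chromosome 6 of GRCm38.p6 at 122605403 to 122610087 on the minus strand, next to other genes that macrophages express, such as Apobec1, C3ar1 and the Clec4a receptors. In female macrophages on control diet, where Gdf3 was higher in KI by 5.98 on the log2 scale, none of the 14 tested genes within 500000 bases passed the threshold. The lowest adjusted p among them was 0.0598 (Necap1, 0.32 on the log2 scale), and Apobec1, the nearest tested gene, had 0.09 (adjusted p = 0.65). Neighbours were looked at after the Gdf3 values were seen.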
